A study of Homo sapiens with 8 samples.

Results

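Prostaglandin E2 is made, exported, sensed and broken down by the products of a small set of genes, and 10 of these were followed through 8 RNA-seq libraries of the prostate cancer cell lines PC3 and LNCaP with and without overexpressed miR-375. The genes were listed by symbol (PTGS1, PTGS2, PTGES, PTGES2, PTGES3, HPGD, PTGER2, PTGER4, PLA2G4A and ABHD6), and each matched 1 of the 60622 gene lines used. The 4 groups were PC3 with miR-375 overexpressed, PC3 control, LNCaP with miR-375 overexpressed and LNCaP control, with 2 libraries each. PC3 is a line from a bone metastasis and LNCaP is an androgen-responsive line from a lymph node metastasis. Both were kept in RPMI-1640 medium with antibiotics, with more serum for PC3 than for LNCaP, so that line and serum cannot be told apart in any comparison of the lines. The sources used here do not give the means of raising miR-375, its duration or what the controls received. Whether replicate libraries were grown separately is not in the labels either, so each p-value reflects library-to-library spread that may be technical.

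Arachidonic acid is freed from membrane phospholipids by cytosolic phospholipase A2 and turned by cyclooxygenases into the unstable prostaglandin H2. Terminal synthases convert that into prostaglandin E2 and other prostanoids, which leave the cell and act on G protein-coupled receptors at its surface or on its neighbours. The main enzyme of inactivation, 15-hydroxyprostaglandin dehydrogenase, acts inside the cell. In epithelial tumours the inducible cyclooxygenase is known for its rise in inflammation, and the dehydrogenase for its frequent loss.

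The 10 genes were chosen by their roles and by their measured differences with miR-375 and between the lines in these same libraries. Their differences between groups are therefore given as a description. Where one is said to have risen or fallen, it passed an adjusted p of 0.05 in edgeR's quasi-likelihood test over all 21066 tested genes, which serves only as a label here. All 10 passed the filter on low counts, PTGS1 through LNCaP alone and PTGER2 through PC3 alone. Levels are CPM, the usual depth-scaled count unit, with TMM-adjusted library sizes. Differences between miR-375 and control are log2 fold changes, positive where miR-375 was higher, given ± SE. A count of 3 corresponds to between 0.0712 and 0.0906 CPM.

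Library totals ran from 33973861 to 41890528 counts. KLK3 and KLK2, the kallikrein markers of LNCaP, had 0 counts in all 4 PC3 libraries, and the summed level of 5 LNCaP markers was between 42.1 and 56.2 CPM in PC3. In LNCaP that sum was between 3039 and 3143 CPM with miR-375 and between 4333 and 4369 CPM in controls. The summed level of 5 PC3 markers was between 1002 and 1013 CPM in PC3 with miR-375, between 1888 and 1904 CPM in PC3 controls, and between 32.7 and 46.7 CPM in LNCaP. The 6 markers of leukocytes and platelets, cells rich in cyclooxygenases, summed to between 1.68 and 2.74 CPM in all libraries. The 5 markers of fibroblasts and endothelium summed to between 420 and 439 CPM in PC3 with miR-375 and between 212 and 224 CPM in PC3 controls. Most of that came from the collagen gene COL1A1, with means of 373 and 139 CPM in those 2 groups. COL1A2, its partner chain, was at 0.618 and 0.588 CPM, and VWF at 0.143 and 0.101 CPM. PDGFRA and PECAM1 went the other way, with means of 23.2 and 32.3 CPM with miR-375 against 33.7 and 45.1 CPM in controls. In LNCaP the same sum was between 47.5 and 53.7 CPM with miR-375 and between 42.6 and 50.9 CPM in controls. The part of these levels in the prostaglandin results was not tested.

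The mature miR-375, shown here because its seed is the part that pairs with messenger RNAs, is 22 bases long and is encoded at chr2:219001648-219001669 on the minus strand (RefSeq, GRCh38.p14). Capitals mark the seed, bases 2 to 8.
miR-375: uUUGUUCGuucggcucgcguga
No 3′ UTR of the 10 genes held the 7-letter match to bases 2 to 8, in 1 principal GENCODE 29 transcript per gene. Such a match was present in 185 of 18873 3′ UTRs searched, or 0.98%. The 6-letter match to bases 2 to 7 (GAACAA, plus strand of the transcript only) was present in 4 of the 10 genes, against 26.6% of all 3′ UTRs. The 5 windows are printed as the RNA-sense strand in DNA letters from GENCODE 29 transcripts (GRCh38), with the 6 matching letters in capitals.
ABHD6, chr3:58293972-58293993, plus strand: aactcatatgGAACAAaataag
PTGER2, chr14:52327679-52327700, plus strand: gcctttggagGAACAAtcggct
PTGER2, chr14:52327933-52327954, plus strand: ccctttatttGAACAAtgaagt
PTGES3, chr12:56664056-56664077, minus strand: aaagtgactgGAACAAattggc
PTGS1, chr9:122395529-122395550, plus strand: aaggcctcaaGAACAAacactg
The matches in ABHD6, PTGES3 and PTGS1 were followed by an A, and those in PTGER2 were not. With that A the letters GAACAAA make another recognized form of 7-letter site. The share of all 3′ UTRs with that form was not counted. They describe letters only, and binding was not measured.

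In PC3, the gene for the inducible cyclooxygenase rose most among the 10, and its supplier of arachidonate and its partner synthase rose with it, while the gene for the inactivating enzyme fell. PTGS2 rose 15.0-fold, PTGES 3.66-fold and PLA2G4A 2.49-fold, and HPGD fell 1.58-fold. Of the 10 genes, 5 rose and 2 fell in PC3, where 22.2% and 20.8% of all tested genes were called higher and lower, 43.0% together. As the list was drawn up with this contrast known, nothing is read from that count. In bulk RNA, fewer cells making a transcript and less of it per cell cannot be told apart.

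**Figure D1:**
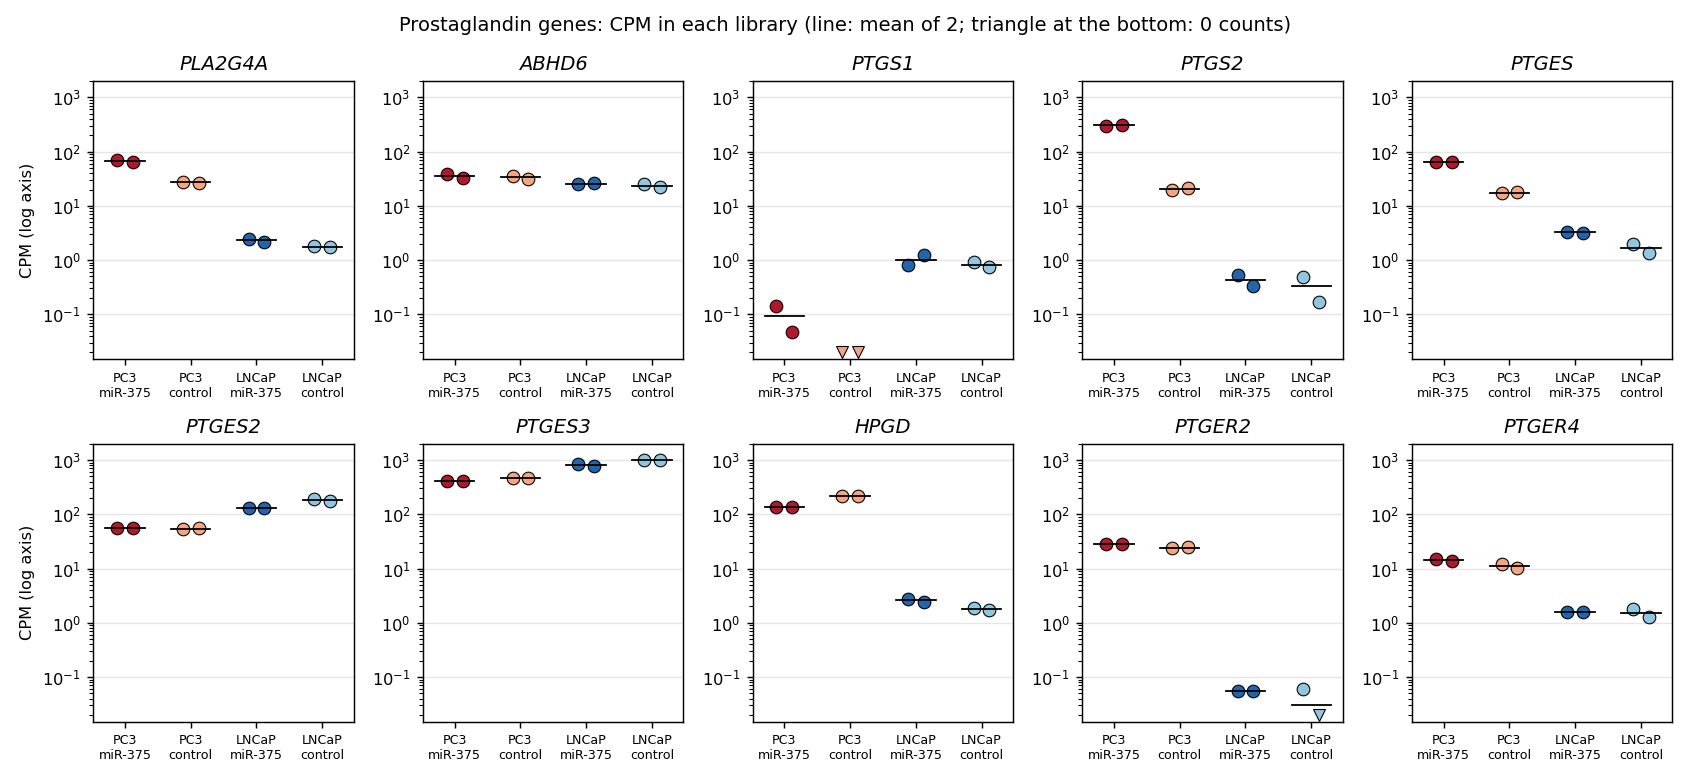
CPM of each of the 10 genes (log axis) in the 2 libraries of each group, with a line at the group mean and a triangle where a library had 0 counts. PTGS2 sits at 302 and 313 CPM in the PC3 miR-375 libraries, at 20.0 and 20.9 CPM in the PC3 controls, and under 1 CPM in every LNCaP library.

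The arachidonate suppliers came first in the pathway. PLA2G4A (ENSG00000116711, chromosome 1, 186828953 to 186988981, plus strand, GRCh38) encodes cytosolic phospholipase A2, which cuts arachidonate from phospholipids. It stood at 70.5 and 64.6 CPM in the PC3 miR-375 libraries and at 27.8 and 26.5 CPM in the PC3 controls, a log2 difference of 1.32 ± 0.08. The groups did not overlap. In LNCaP it stood at 2.44 and 2.16 CPM with miR-375 and at 1.81 and 1.72 CPM in the controls. Both miR-375 libraries were above both controls there, and the difference of 0.38 ± 0.19 did not pass. With library sizes from total counts in place of TMM it did pass, with a log2 difference of 0.50.

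ABHD6 (ENSG00000163686, chromosome 3, 58237506 to 58295693, plus strand) encodes a membrane hydrolase of monoacylglycerols, among them the arachidonate-bearing endocannabinoid 2-arachidonoylglycerol. It stood at 37.9 and 32.8 CPM in PC3 with miR-375 and at 35.6 and 31.3 CPM in the PC3 controls, and at 25.2 and 26.3 CPM in LNCaP with miR-375 and at 25.0 and 22.4 CPM in the LNCaP controls. The PC3 groups overlapped and the LNCaP groups did not. Neither difference passed (0.08 ± 0.08 in PC3 and 0.12 ± 0.09 in LNCaP). In LNCaP it passed with total-count library sizes, at 0.24, a scaling that moved the median of all tested genes in LNCaP by 0.12. ABHD6 varied least with the line, at a log2 difference of 0.50 ± 0.09 between PC3 and LNCaP controls.

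The 2 cyclooxygenase genes were detected mainly in different lines. PTGS1 (ENSG00000095303, chromosome 9, 122370530 to 122395703, plus strand) encodes the cyclooxygenase that many tissues make at a steady level. It had 6 and 2 counts in PC3 with miR-375 and 0 and 0 counts in the PC3 controls. The PC3 row was called higher, but no fold is given against a group at 0, and the call ended without either PC3 control, without the first PC3 miR-375 library, with counts halved and with PC3 fitted alone. In LNCaP it had 30 and 44 counts with miR-375 (0.813 and 1.22 CPM) and 30 and 26 counts in the controls (0.906 and 0.744 CPM). Those groups overlapped, and the difference of 0.30 ± 0.60 did not pass. Over both libraries PTGS1 had 0 counts in PC3 controls and 56 in LNCaP controls, and the 95% counting interval of the ratio of PC3 to LNCaP reached up to 0.0589. This and the other counting intervals take each count as independent, and are too narrow if mates were counted singly.

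PTGS2 (ENSG00000073756, chromosome 1, 186671791 to 186680427, minus strand) encodes the inducible cyclooxygenase. It lies 148525 bases from PLA2G4A. It stood at 302 and 313 CPM in PC3 with miR-375 and at 20.0 and 20.9 CPM in the PC3 controls, a log2 difference of 3.91 ± 0.06. The lowest miR-375 library was far above the highest control. In LNCaP it was a trace transcript with 20 and 12 counts with miR-375 (0.542 and 0.332 CPM) and 16 and 6 counts in the controls (0.483 and 0.172 CPM). The LNCaP groups overlapped, the difference of 0.43 ± 0.41 did not pass, and it was −0.09 without the second LNCaP control and 1.38 without the first. The counts behind that difference were low (32 summed with miR-375, exact Poisson 95% interval 21.9 to 45.2, and 22 in controls, 13.8 to 33.3, counting error only). What size of difference could be detected was not tested. Between the control groups PTGS2 was 62.6-fold higher in PC3 than in LNCaP, a log2 difference of 5.97 ± 0.16. That difference was 6.90 without the first LNCaP control and 5.43 without the second.

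The sequences before the starts of PTGS2, PTGES and PLA2G4A are shown because these 3 genes rose most in PC3. Each is the 250 bases before the RefSeq start (GRCh38.p14), at chr1:186680424-186680673, minus strand for PTGS2, chr9:129753043-129753292, minus strand for PTGES and chr1:186828699-186828948, plus strand for PLA2G4A. Capitals mark matches on either strand to TATAA (TATA box), TGACG (the core of the cAMP response element), TGANTCA (AP-1, where N is any base) and a loose form of the NF-kB motif (GGGA, 4 of any base, then CC).
PTGS2: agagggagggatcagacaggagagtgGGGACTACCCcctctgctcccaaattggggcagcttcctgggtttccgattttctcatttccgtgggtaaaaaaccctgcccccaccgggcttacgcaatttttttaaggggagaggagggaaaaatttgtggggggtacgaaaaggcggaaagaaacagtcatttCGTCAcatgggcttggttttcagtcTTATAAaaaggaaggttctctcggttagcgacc
PTGES: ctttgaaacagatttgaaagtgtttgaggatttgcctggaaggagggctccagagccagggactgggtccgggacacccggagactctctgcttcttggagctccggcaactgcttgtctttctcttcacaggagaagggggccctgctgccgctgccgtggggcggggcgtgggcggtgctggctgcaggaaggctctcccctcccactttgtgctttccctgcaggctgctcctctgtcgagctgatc
PLA2G4A: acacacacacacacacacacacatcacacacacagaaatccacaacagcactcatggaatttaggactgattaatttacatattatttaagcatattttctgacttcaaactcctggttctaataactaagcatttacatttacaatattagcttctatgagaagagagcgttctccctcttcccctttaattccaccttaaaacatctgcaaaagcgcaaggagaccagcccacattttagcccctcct
PTGS2 held an NF-kB match from −224 to −215, a cAMP response element core from −58 to −54 on the opposite strand, and overlapping TATAA matches on both strands from −33 to −28. PTGES and PLA2G4A held none of the 4. Of 35116 RefSeq windows of the same length, 18.9% held TATAA, 21.2% TGACG, 6.57% TGANTCA and 22.6% the NF-kB letters. These are letter matches, and no factor was measured at them.

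**Figure D2:**
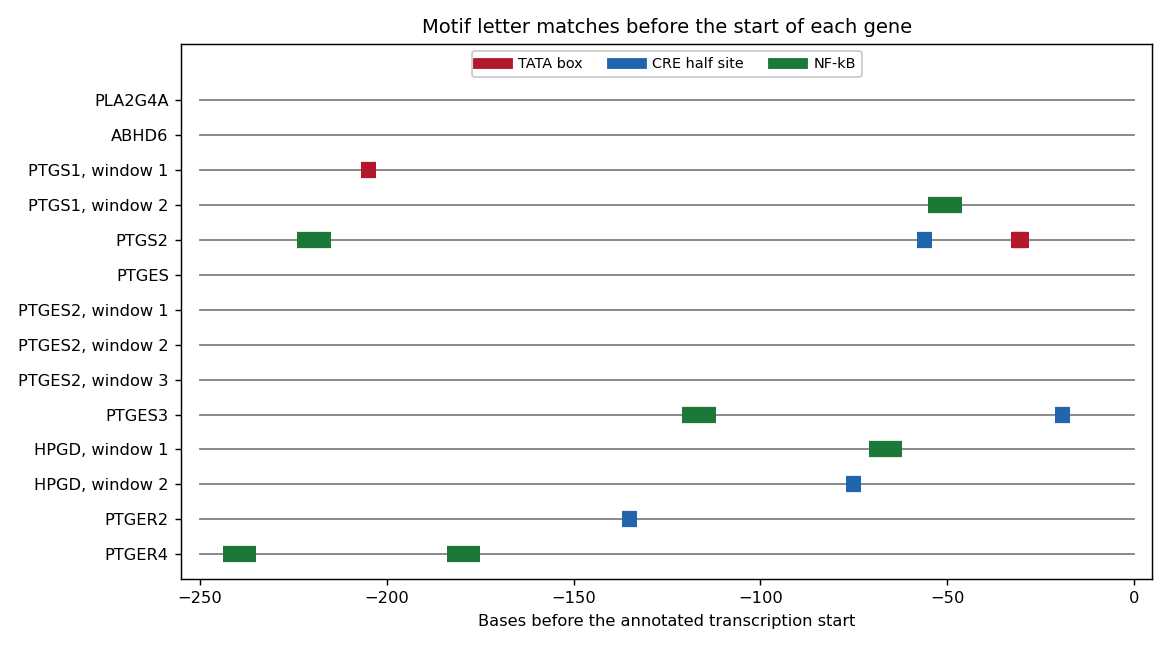
Positions of the motif matches in the 250 bases before each annotated start of the 10 genes (horizontal axis, bases before the start; 14 windows, since some genes have several starts). Only the PTGS2 row carries a match to the TATA box, the cAMP response element core and the NF-kB motif together, and the AP-1 letters were found in none. PTGES3, which fell in both lines, carries the response element core and the NF-kB motif, and HPGD carries them in different windows. PTGER4 carries the NF-kB motif, PTGER2 the response element core, and PTGS1 the TATA box and the NF-kB motif in different windows.

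The terminal synthase genes moved unequally. PTGES (ENSG00000148344, chromosome 9, 129738331 to 129753047, minus strand) encodes the inducible microsomal synthase that works with the PTGS2 enzyme. It stood at 63.7 and 65.0 CPM in PC3 with miR-375 and at 17.1 and 18.1 CPM in the PC3 controls (1.87 ± 0.09). In LNCaP it stood at 3.31 and 3.21 CPM with miR-375 and at 1.99 and 1.37 CPM in the controls, and rose 1.94-fold (0.96 ± 0.18). It was the only one of the 10 genes called higher in both lines.

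PTGES2 (ENSG00000148334, chromosome 9, 128120693 to 128128462, minus strand) encodes a membrane-associated synthase made at a steady level in many tissues. It did not pass in PC3, at 55.6 and 56.1 CPM with miR-375 and 53.9 and 55.6 CPM in controls (0.03 ± 0.05). In LNCaP it fell to 130 and 130 CPM with miR-375, against 193 and 179 CPM in the controls (−0.52 ± 0.05). PTGES3 (ENSG00000110958, chromosome 12, 56663341 to 56688408, minus strand) encodes p23, a co-chaperone of HSP90 that also has synthase activity. It fell in both lines, to 408 and 405 CPM in PC3 with miR-375 against 458 and 461 CPM in the PC3 controls (−0.18 ± 0.03). In LNCaP it fell to 834 and 789 CPM with miR-375 against 988 and 1003 CPM in the controls (−0.30 ± 0.03).

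HPGD (ENSG00000164120, chromosome 4, 174490177 to 174523154, minus strand) encodes 15-hydroxyprostaglandin dehydrogenase, the enzyme of the first step of prostaglandin breakdown. In PC3 it fell to 137 and 134 CPM with miR-375, against 214 and 214 CPM in the controls (−0.66 ± 0.05). In LNCaP it rose, to 2.76 and 2.41 CPM with miR-375 against 1.90 and 1.75 CPM in the controls (0.50 ± 0.16). That LNCaP call ended with counts halved, with LNCaP fitted alone, with limma-voom, and without the second control or the first miR-375 library. Neither line's groups overlapped. The LNCaP level was far below that of PC3, with a 117-fold difference between the PC3 and LNCaP controls.

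Of the receptors, PTGER2 and PTGER4 encode EP2 and EP4, the prostaglandin E2 receptors that raise cyclic AMP. PTGER2 (ENSG00000125384, chromosome 14, 52314305 to 52328606, plus strand) stood at 28.8 and 27.8 CPM in PC3 with miR-375 and at 23.5 and 25.0 CPM in the PC3 controls. The groups did not overlap and the difference of 0.23 ± 0.11 did not pass. It passed with total-count library sizes, with limma-voom, with counts halved and with PC3 fitted alone, at values from 0.21 to 0.30. In LNCaP it had 2 and 2 counts with miR-375 and 2 and 0 counts in the controls, so no fold is given. The ratio of PC3 to LNCaP controls was 823, with a 95% counting interval from 228 to 6803.

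PTGER4 (ENSG00000171522, chromosome 5, 40679498 to 40693735, plus strand) stood at 14.9 and 13.7 CPM in PC3 with miR-375 and at 11.9 and 10.3 CPM in the PC3 controls. It rose by 0.37 ± 0.14, and that call ended with DESeq2, without a filter on low counts, and without any of 5 single libraries (either LNCaP miR-375 library, the second PC3 control, or either PC3 miR-375 library). In LNCaP it stood at 1.57 and 1.61 CPM with miR-375 and at 1.78 and 1.26 CPM in the controls. Those groups overlapped, and the difference of 0.07 ± 0.24 did not pass.

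**Figure D3:**
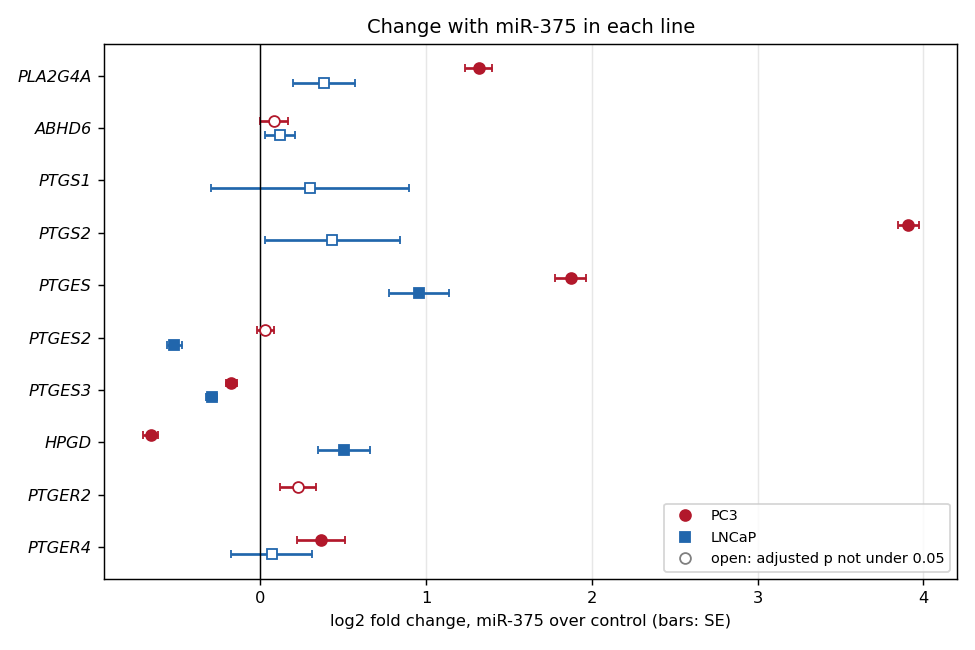
Log2 fold change of miR-375 over control for each gene in PC3 (circles, upper of each pair) and LNCaP (squares), with bars for the SE and open symbols where the adjusted p was not under 0.05. PTGS2 in PC3 stands at 3.91, HPGD lies on opposite sides of 0 in the 2 lines, and PTGS1 in PC3 and PTGER2 in LNCaP are left out because a group was at or under 3 counts in each library.

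In LNCaP, 2 of the 10 genes rose (PTGES and HPGD) and 2 fell (PTGES2 and PTGES3), where 13.9% and 18.7% of all tested genes were called higher and lower, 32.6% together. With total-count library sizes 4 of the 10 were called higher and 2 lower. The difference between the lines was called for 5 of the 10 genes. The effect in PC3 exceeded that in LNCaP by 3.48 ± 0.48 for PTGS2, 0.91 ± 0.21 for PTGES, 0.93 ± 0.21 for PLA2G4A and 0.55 ± 0.07 for PTGES2. It was 1.17 lower for HPGD (−1.17 ± 0.16). Of all tested genes, 15.6% were called in the first direction and 10.9% in the second, 26.5% together. As the list was drawn up with these contrasts known, nothing is read from these counts. Without the first LNCaP control the PTGES difference did not pass, at 0.55, and the PTGS2 difference was 2.50. Without the second it was 3.98 for PTGS2.

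Between the control groups all 10 genes differed, 7 higher and 3 lower in PC3 than in LNCaP, where 39.2% and 41.2% of all tested genes were called higher and lower, 80.4% together. The list was drawn up with line differences known, and PTGS1 and PTGER2 passed the filter only through the line where they were high. Nothing is read from that count. PTGS2, HPGD, PTGER2, PTGER4, PLA2G4A, PTGES and ABHD6 were higher in PC3, and PTGS1, PTGES2 and PTGES3 were higher in LNCaP. The log2 difference was 3.94 ± 0.13 for PLA2G4A, 3.39 ± 0.14 for PTGES and 2.87 ± 0.19 for PTGER4. It was −1.76 ± 0.05 for PTGES2 and −1.12 ± 0.03 for PTGES3.

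Levels can be set beside each other between genes only per length, and CPM per kilobase of merged GENCODE 29 exons was used for that. Merged exons can exceed the principal transcript, as for HPGD (5529 against 3027 bases) but not for PLA2G4A (2875 in both). The orders and ties below hold for merged exons alone, and the SD does not cover that choice of length. In PC3 with miR-375 the order from the top was PTGES3 (120 ± 0.636), PTGS2 (58.3 ± 1.48), PTGES (33.9 ± 0.497), HPGD (24.5 ± 0.477) and PLA2G4A (23.5 ± 1.46; SD, n = 2), of which the last pair lay within their spread. In PC3 controls it was PTGES3 (135 ± 0.603), HPGD (38.8 ± 0.0175) and PTGES2 (18.0 ± 0.408). PTGER2 (9.79 ± 0.423), PLA2G4A (9.43 ± 0.328), ABHD6 (9.32 ± 0.845) and PTGES (9.28 ± 0.398) came next within their spread, and PTGS2 stood at 3.88 ± 0.131 CPM per kilobase. PTGS2 thus stood above HPGD in CPM per kilobase in both PC3 miR-375 libraries and below it in both PC3 controls. In LNCaP, PTGES3 led with miR-375 (239 ± 9.34) and in controls (293 ± 2.98), then PTGES2 (42.7 ± 0.0547 and 61.2 ± 3.35) and ABHD6 (7.18 ± 0.222 and 6.61 ± 0.500). The other 7 genes were under 2 CPM per kilobase in every LNCaP library.

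The 5 tested genes whose log2 CPM followed PTGS2 most closely over the 8 libraries were IFITM3, SERPINE2, ID1, DHRS3 and ANGPTL4, with Pearson's r from 0.996 to 0.998. The 8 points fall into 2 lines, so that much of r is the gap between lines. ANGPTL4, which encodes an angiopoietin-like inhibitor of lipoprotein lipase, averaged 217 CPM in PC3 with miR-375 and 17.1 CPM in PC3 controls, and was under 1 CPM in LNCaP (0.602 with miR-375 and 0.367 in controls). ID1, an inhibitor of helix-loop-helix transcription factors, averaged 868 and 252 CPM in the same PC3 groups, and 48.5 and 47.7 CPM in LNCaP with miR-375 and in LNCaP controls.

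Around the 10 genes, 89 related genes in 7 lists were looked at, listed by role with earlier results of these libraries known, and 81 passed the filter on low counts. In PC3, 23 rose and 15 fell (46.9% called, against 43.0% of all tested genes), with a median log2 change of 0.13 over 77 genes, against 0.02 over all tested genes. In LNCaP, 18 rose and 22 fell (49.4% called, against 32.6% of all tested genes), with a median of 0.00 over 80 genes, against 0.00 over all. With total-count library sizes the LNCaP split was 22 higher and 18 lower. These medians set a group at 0 to the floor of 3 counts and leave out genes with both groups at or under it. Adjusted p-values below are from edgeR's quasi-likelihood test over all 21066 genes. As the lists were drawn up with earlier results known, nothing is read from the counts of calls by list.

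**Figure D4:**
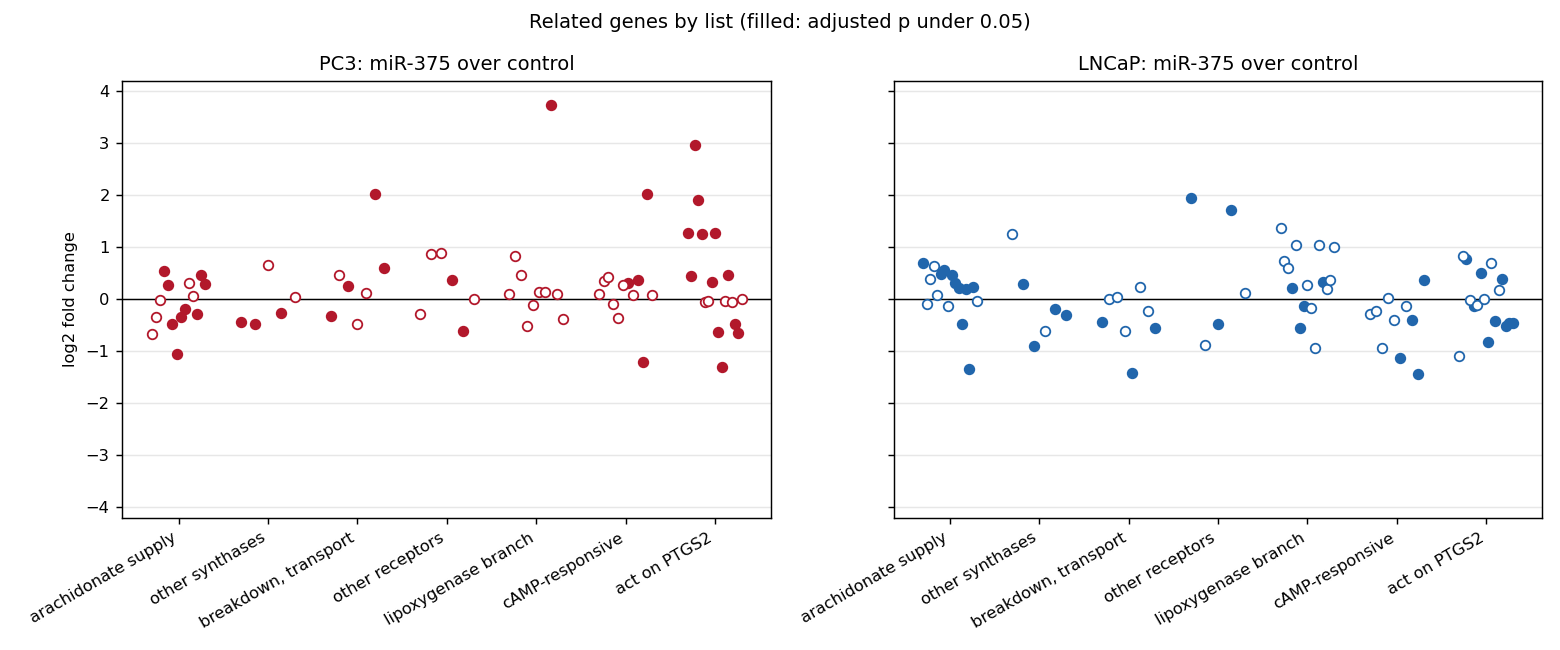
Log2 fold change of miR-375 over control for the related genes by list, PC3 on the left and LNCaP on the right, filled where the adjusted p was under 0.05. The 71 genes drawn for PC3 and 76 for LNCaP leave out those with a group at or under 3 counts in each library, and most changes lie within 1 log2 unit of 0.

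Other genes of arachidonate supply and release were 4 higher and 5 lower of 16 tested in PC3, and 8 higher and 2 lower in LNCaP. The shares called, 56.2% in PC3 and 62.5% in LNCaP, stand beside 43.0% and 32.6% of all tested genes. MGLL, which encodes monoacylglycerol lipase and so frees arachidonate from 2-arachidonoylglycerol, fell in PC3 to 99.2 and 107 CPM with miR-375, against 220 and 210 CPM in controls (−1.06 ± 0.05, adjusted p = 8.48e-20). In LNCaP it rose, to 26.2 and 28.7 CPM against 19.9 and 20.0 CPM (0.46 ± 0.07, adjusted p = 6.74e-07). The secreted phospholipase gene PLA2G12A rose 1.45-fold in PC3 and 1.40-fold in LNCaP (adjusted p = 5.26e-07 and 1.10e-06). PLA2G2A, a secreted phospholipase gene, rose to 71.8 and 73.6 CPM in LNCaP with miR-375, against 46.0 and 44.0 CPM in controls (adjusted p = 1.76e-09). In PC3, MBOAT7, whose enzyme puts arachidonate back into phosphatidylinositol, rose by 0.47 and PLAAT3, a phospholipase gene, fell by 0.48. The acyl-CoA synthetase gene ACSL4, which favours arachidonate, fell 2.52-fold in LNCaP, to 1.84 and 1.94 CPM against 4.95 and 4.58 CPM (adjusted p = 8.67e-10), and the lysosomal phospholipase gene PLA2G15 rose by 0.56.

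Of the 6 tested genes for other terminal synthases, none rose and 3 fell in PC3, and 1 rose and 3 fell in LNCaP. Called were 50% in PC3 and 66.7% in LNCaP, against 43.0% and 32.6% of all tested genes. TBXAS1, the thromboxane synthase gene, fell in PC3 to 81.9 and 79.5 CPM with miR-375, against 107 and 111 CPM in controls (−0.43 ± 0.06, adjusted p = 3.55e-07). In LNCaP it rose by 0.30 ± 0.10 (adjusted p = 0.0123), a call that ended with limma-voom and without the second LNCaP control or the second miR-375 library. AKR1C3, a prostaglandin F synthase and steroid reductase gene, fell by 0.48 in PC3 and by 0.90 in LNCaP. The LNCaP call ended with limma-voom and without the first control or the first miR-375 library. AKR1C genes share long near-identical stretches, so their counts are uncertain. PRXL2B, another prostaglandin F synthase gene, fell by 0.27 in PC3 and by 0.19 in LNCaP. The LNCaP call ended with total-count library sizes, without a low-count filter, with DESeq2, and without the first control or the second miR-375 library. The carbonyl reductase gene CBR1 fell by 0.31 in LNCaP, and that call ended without the first control or the second miR-375 library.

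Among 8 genes of breakdown and transport, 3 rose and 1 fell in PC3, and none rose and 3 fell in LNCaP. The shares called were 50% and 37.5%, against 43.0% and 32.6% of all tested genes in PC3 and LNCaP. ABCC4 encodes MRP4, a pump that exports prostaglandin E2. It rose in PC3 to 67.0 and 63.2 CPM with miR-375, against 42.2 and 43.6 CPM in controls (0.60 ± 0.05, adjusted p = 6.98e-13). In LNCaP it fell to 247 and 255 CPM against 356 and 385 CPM (−0.56 ± 0.04, adjusted p = 8.61e-14). PTGR1, a prostaglandin reductase gene, fell by 0.33 in PC3 and by 0.43 in LNCaP, and PTGR3 rose by 0.26 in PC3, a call that ended without the second PC3 control or the first PC3 miR-375 library. AKR1C1 fell by 1.41 in LNCaP, and AKR1C2 rose by 2.02 in PC3, to 1.43 and 0.664 CPM with miR-375 against 0.200 and 0.311 CPM in controls. The AKR1C2 call ended without the first PC3 miR-375 library.

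Of the 6 tested genes in the list of other prostanoid receptors, 1 rose and 1 fell in PC3, and 2 rose and 1 fell in LNCaP. Called were 33.3% in PC3 and 50% in LNCaP, against 43.0% and 32.6% of all tested genes. The list also held PTGFRN, whose product is a regulator of the prostaglandin F receptor and not itself a prostanoid receptor. It passed in neither line. PTGFR, the prostaglandin F receptor gene, rose in PC3 to 33.0 and 29.6 CPM with miR-375, against 25.2 and 23.1 CPM in controls (0.37 ± 0.07, adjusted p = 6.13e-05). In LNCaP it fell to 61.3 and 61.0 CPM against 79.9 and 89.6 CPM (−0.47 ± 0.07, adjusted p = 2.32e-07). PTGER3, which encodes the cyclic AMP-lowering receptor EP3, rose in LNCaP to 2.11 and 1.99 CPM against 0.604 and 0.458 CPM (adjusted p = 0.00216). TBXA2R, the thromboxane receptor gene, fell by 0.61 in PC3, and that call ended with total-count library sizes, with DESeq2, and without the second control or the first miR-375 library.

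The lipoxygenase, leukotriene and epoxide list had 3 genes higher and none lower of 15 in PC3, and 2 higher and 2 lower in LNCaP. That was 20% called in PC3 and 26.7% in LNCaP, against 43.0% and 32.6% of all tested genes. Calls in PC3 included rows near the floor. ALOX15 had 1 and 4 counts with miR-375 there, against 0 and 0 in controls, and LTC4S had 24 and 4 against 2 and 2. CYSLTR1, a cysteinyl leukotriene receptor gene, rose in PC3 to 1.45 and 1.38 CPM with miR-375, against 0 and 0.208 CPM in controls (adjusted p = 1.39e-04). ALOX15, an arachidonate lipoxygenase gene, rose by 0.22 and the epoxide hydrolase gene EPHX2 by 0.34 in LNCaP. ALOXE3 fell by 0.56 and LTA4H by 0.14 there, and leaving out any single LNCaP library ended both calls, as did median-ratio or total-count library sizes, no low-count filter and DESeq2. With the replicate number as a block the ALOXE3 call ended as well, at −0.56.

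The list of genes known to respond to cyclic AMP had 3 higher and 1 lower of 12 in PC3, and 2 higher and 4 lower in LNCaP. The shares called were 33.3% in PC3 and 50% in LNCaP, against 43.0% and 32.6% of all tested genes. NR4A1, NR4A2, NR4A3, CREM and SIK1, named after their values were seen, passed in neither line, with log2 changes from −0.36 to 0.43 in PC3 and from −0.94 to 0.02 in LNCaP. FOSB, an AP-1 gene, rose in PC3 to 2.76 and 3.65 CPM with miR-375, against 0.649 and 0.934 CPM in controls (2.02 ± 0.38, adjusted p = 3.49e-05). In LNCaP it fell by 1.44, a call that ended without the second control or the first miR-375 library, and the change was −2.16 without the second miR-375 library. RGS2, a regulator of G protein signalling, fell in PC3 to 109 and 110 CPM against 254 and 252 CPM (adjusted p = 2.16e-19). In LNCaP it had 2 counts with miR-375 and 185 in controls, a ratio of 0.0101 with a 95% counting interval from 0.00121 to 0.0369. The EGF receptor ligand gene AREG and the phosphodiesterase gene PDE4D rose in PC3 by 0.37 and 0.32. The call of AREG ended without the first PC3 control or the second PC3 miR-375 library, and that of PDE4D without the first PC3 control. The phosphodiesterase gene PDE4B and the clock gene PER1 fell in LNCaP by 1.13 and 0.39. Leaving out the first of the LNCaP miR-375 libraries ended both calls, and that of PDE4B also without the first control and with limma-voom. The 2 genes called higher in LNCaP were AREG and DUSP1. AREG had 39 counts with miR-375 and 0 in controls there, and the 95% counting interval of the ratio began at 9.39. DUSP1 rose by 0.37 (adjusted p = 1.12e-04).

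Of 18 genes whose products act on PTGS2, 9 rose and 4 fell in PC3, and 3 rose and 7 fell in LNCaP. That was 72.2% called in PC3 and 55.6% in LNCaP, against 43.0% and 32.6% of all tested genes. This list too was drawn up with earlier results known, and nothing is read from those shares. The cytokine genes IL6 and IL1A rose in PC3. IL6 stood at 11.4 and 11.0 CPM with miR-375, against 2.92 and 3.06 CPM in controls (adjusted p = 1.23e-09). In LNCaP IL6 was called lower, with 0 and 0 counts with miR-375 against 17 and 11 counts in controls (adjusted p = 1.29e-05). In PC3 IL1A stood at 12.6 and 11.7 CPM with miR-375, against 4.24 and 5.78 CPM (adjusted p = 1.23e-06). CEBPD, a transcription factor gene of the acute-phase response, rose 2.43-fold in PC3 (adjusted p = 3.97e-16) and 1.41-fold in LNCaP (adjusted p = 4.82e-06). CXCL8, the interleukin 8 gene, rose in PC3 to 729 and 728 CPM with miR-375, against 304 and 302 CPM in controls (1.27 ± 0.03, adjusted p = 1.85e-26). In LNCaP it rose to 37.5 and 38.9 CPM against 22.6 and 22.3 CPM (0.77 ± 0.05, adjusted p = 7.11e-15), and the line difference of 0.50 passed (adjusted p = 5.45e-08). Transcripts of the NF-kB subunits NFKB1 and RELA did not pass in PC3 (−0.06 ± 0.06 and −0.03 ± 0.04), and in LNCaP RELA fell by 0.12 (adjusted p = 0.0299). These 2 genes were named after their values were seen. FOSL1, an AP-1 gene, fell 2.45-fold in PC3, to 296 and 293 CPM against 717 and 726 CPM (adjusted p = 2.70e-26). KHSRP and HNRNPD, whose RNA-binding proteins promote decay of AU-rich messengers such as that of PTGS2, fell in both lines. The falls were 0.52 and 0.45 in LNCaP (adjusted p = 8.58e-15 and 4.44e-12), and 0.47 and 0.66 in PC3 (adjusted p = 3.77e-14 and 2.08e-16). Other RNA-binding protein genes of the list did not all fall. ZFP36 rose by 0.47 in PC3 alone (adjusted p = 0.0129), and ZFP36L1 by 0.38 in LNCaP alone (adjusted p = 4.26e-07). ELAVL1 and TIA1 fell by 0.42 and 0.45 in LNCaP (adjusted p = 8.66e-11 and 8.55e-07) and did not pass in PC3.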

How the data were processed

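Poly(A) RNA from 8 libraries was read as paired ends from dUTP-marked stranded libraries, per the labels' protocols. The authors deposited 1 table of raw gene counts. The submitters' processing notes name hg38, DESeq2, featureCounts, STAR 2.7.1a and fastp. The sources used here give neither their roles nor the annotation or strand used in counting, so overlapping and antisense genes are uncertain. Of 60625 gene lines, 3 were broken and left out (279 counts). Of counts from 1 to 20, between 68.1% and 70.3% per library were even, so mates may have been counted singly, and counts halved were tried. Groups and replicate numbers came from the sample titles.

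Genes passing filterByExpr (21066) went into 1 edgeR 4.0.16 model (TMM, robust glmQLFit, glmQLFTest, R 4.3.3) of the 4 groups, leaving 4 residual degrees of freedom, with Benjamini-Hochberg adjustment over all tested genes and calls under 0.05. The SE is the log2 fold change divided by the square root of F. The contrasts were miR-375 over control in each line, the PC3 effect minus the LNCaP effect, and PC3 control over LNCaP control. DESeq2 1.42.0 and limma 3.58.1 (voom) were alternatives. The fit was also run on simulated counts with changes in PC3 alone and no difference between the lines. That run does not bear on the line contrasts or on genes at low levels. Intervals and the floor of 3 counts reflect counting error alone, as PCR reads lacking molecular identifiers do not count independent molecules. If mates were counted singly, the counting intervals are too narrow for that reason as well.

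The 10 genes and the related lists were chosen with earlier results of these data known. Related genes were named by rule: per list and line, up to 4 called genes with the largest change and a mean of at least 1 CPM in either group. Related genes named otherwise were named after their values were seen, and those calls were not followed under the alternatives. Replicates of a group differed by more than counting noise (chi-square over its degrees of freedom between 3.52 and 3.74), and none was treated as a duplicate. Sequences came from RefSeq tables (GRCh38.p14) and GENCODE 29, and promoters matched for all 10 genes.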

Additional observations from a re-analysis of the deposited data

Results flagged for a closer look

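The effect of miR-375 differed between the lines for 5 of the 10 prostaglandin genes by the interaction test of edgeR (PC3 effect minus LNCaP effect, log2). Of all tested genes 26.5% were called, and the 10 were chosen with these results known, so that count is a description. The differences were 3.48 for PTGS2, 0.91 for PTGES, 0.55 for PTGES2, 0.93 for PLA2G4A and −1.17 for HPGD. HPGD fell in PC3 in both miR-375 libraries relative to both controls and rose in LNCaP in both. The LNCaP call of HPGD ended under the alternatives given above. PTGS2 was under 1 CPM in every LNCaP library, so its LNCaP effect rests on 32 summed counts with miR-375 and 22 in controls.

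Of the related genes, 9 changed in opposite directions in the 2 lines and differed between them by the same test. The share of all tested genes that did so was not counted, so nothing is read from that number. MGLL (−1.52, adjusted p = 7.31e-17), DAGLA (−0.67, adjusted p = 1.11e-04) and DAGLB (−0.42, adjusted p = 0.00731), which make or cleave 2-arachidonoylglycerol, fell in PC3 and rose in LNCaP. So did TBXAS1 (−0.73, adjusted p = 3.40e-06) and the receptor gene TBXA2R (−2.34, adjusted p = 0.00419), thromboxane synthase and its receptor, though TBXA2R was under 1 CPM in LNCaP. ABCC4 (1.16, adjusted p = 9.05e-17), PTGFR (0.84, adjusted p = 1.27e-08) and FOSB (3.46, adjusted p = 1.47e-05) rose in PC3 and fell in LNCaP. IL6 did so too (adjusted p = 4.04e-08), and no difference is given for it because both LNCaP miR-375 libraries had 0 counts. Within each line DAGLB passed narrowly in edgeR's test (adjusted p = 0.0497 in PC3 and 0.0489 in LNCaP). The calls of TBXAS1 and FOSB in LNCaP and of TBXA2R in PC3 ended under the alternatives given above.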

How the results depend on the processing

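Of 1264 values of single genes under alternatives, 1188 kept direction and side of the threshold, 59 lost a call, 8 gained one and 9 turned in sign, none of those 9 called. The related genes among them had been picked as called, and many fits left out a library of the other line. The share kept depends on these choices and is a description. PTGES2 in PC3 turned without a low-count filter (−0.000526). The others turned when 1 library was left out. Over such fits PTGS2 in LNCaP ranged from −0.0946 (without the second control) to 1.38, PTGER4 in LNCaP from −0.120 (the same library) to 0.381, and ABHD6 in PC3 from −0.0278 (without the first miR-375 library; −0.0102 without the second control) to 0.179. The line difference ranged from −0.0418 (without the first LNCaP control) to 0.459 for PTGER4, from −0.00241 (without the second LNCaP miR-375 library) to 0.125 for PTGES3, and from −0.193 to 0.0586 (without the second PC3 miR-375 library; 0.0551 without the first PC3 control) for ABHD6. The cause was not tested.

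The count of the 10 genes called higher in LNCaP, 2, became 4 with total-count library sizes and 1 with limma-voom, each line fitted alone or counts halved, and 1 or 2 without single libraries (1 without the second control or the first miR-375 library). In PC3 the 5 called higher became 3 to 5 without single libraries (3 without the second control or the first miR-375 library). Related genes called lower in LNCaP, 22, ranged from 14 to 22 without single libraries, with 14 without the first control or the first miR-375 library. All other counts stayed within 1.5 times. For all genes, total-count library sizes gave 4717 higher and 2614 lower in LNCaP, against 2927 and 3933 with TMM.

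Replicate numbers are shared by label only. Deviations of same-numbered libraries correlated at −0.0071 to 0.018 between groups, and with the replicate block 2 of the 10 genes rose in LNCaP and 5 in PC3, as without it. Of the related genes named by rule, the block ended the ALOXE3 call in LNCaP (−0.565) alone. Low counts limit PTGS1, PTGS2 and PTGER2 in LNCaP or PC3.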
